A study of Mus musculus with 4 samples.

Results

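The 10 genes described here are markers or regulators of cross-presenting dendritic cells, the conventional type 1 dendritic cells (cDC1). They are Xcr1, Clec9a, Itgae, Gpr141b, Anpep, Naaa, Dnase1l3, Irf8, Batf3 and Zbtb46. They were found by gene symbol among 19938 measured genes, and all 10 had a probe set, 1 each. Gene expression was profiled on 4 Affymetrix whole-transcript arrays, 2 of cells labelled Hif1a-/- and 2 of wild-type (WT) cells, to set haematopoietic stem cells without Hif1a against normal ones. Hif1a is the gene of HIF-1α, a transcription factor that low oxygen stabilises. All mice were C57BL/6 (B6) and 8 weeks old. The bone marrow cells of both genotypes were sorted as Lin-c-Kit+Sca-1+, a gate that holds multipotent progenitors beside stem cells. The labels do not say which part of Hif1a was deleted, in which cells, how many mice were used or which lineage antibodies defined Lin-. Each genotype has a biological replicate numbered 1 and another numbered 2, and nothing in the labels says what arrays of the same number share.

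Conventional type 1 dendritic cells take up material from dying cells and present its peptides on MHC class I to CD8 T cells, which is called cross-presentation. Their development depends on the transcription factors IRF8 and BATF3, and ZBTB46 marks the conventional dendritic cells as a whole. In bone marrow the lineage is present mainly as precursors, and Irf8 is also transcribed in multipotent and myeloid progenitors and in B cells.

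The members were chosen by their signals on these same arrays, by array number and by genotype. Their differences between the numbers are therefore a description with no test. Their differences between genotypes come from a fit over all genes, and they are no independent evidence either. All values are log2 signals, on which 1 unit is a doubling. Signals of different probe sets are not on a common scale, so only the same gene is compared across arrays.

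The cDC1 genes were far higher in both arrays numbered 2 than in both arrays numbered 1, whatever the genotype. In all 10 genes the arrays had the same order in the deposited values, from high to low Hif1a-/- number 2, WT number 2, Hif1a-/- number 1 and WT number 1. The share of all genes in this order was not counted. The order includes genotype differences as small as 0.001 log2 units (Dnase1l3, number 2), and under other scalings of the arrays Dnase1l3 or Batf3 left it. Both arrays numbered 2 lay above both numbered 1 for all 10 members, which was so for 20.4% of all genes. The median difference between the numbers was 3.79 log2 units over the members, against −0.02 over all genes. It was 3.60 among the arrays labelled Hif1a-/- and 3.89 among the WT arrays.

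The members differed far more by array number than by genotype, and the stem cell genes of the sorted cells also differed between the numbers. Kit, which encodes a receptor used for the sort, had 11.32 (Hif1a-/-) and 11.51 (WT) in the arrays numbered 2, against 12.37 and 12.57 in the arrays numbered 1. Of 15 measured stem cell and multipotent progenitor markers, 12 were lower in both arrays numbered 2 than in both numbered 1 and 1 was higher, with a median difference of −0.65. By array number, 27.2% of all genes were lower in this way. Hlf and Meis1, transcription factor genes of stem cells, differed by −2.95 and −2.28. The Hif1a probe set had 10.64 and 10.58 in the Hif1a-/- arrays 2 and 1, against 10.99 and 10.37 in WT, and since it may cover parts of the gene that were kept, it is no check of the labels. Since bulk RNA was measured, more cells of a type and more RNA per cell cannot be told apart.

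**Figure D1:**
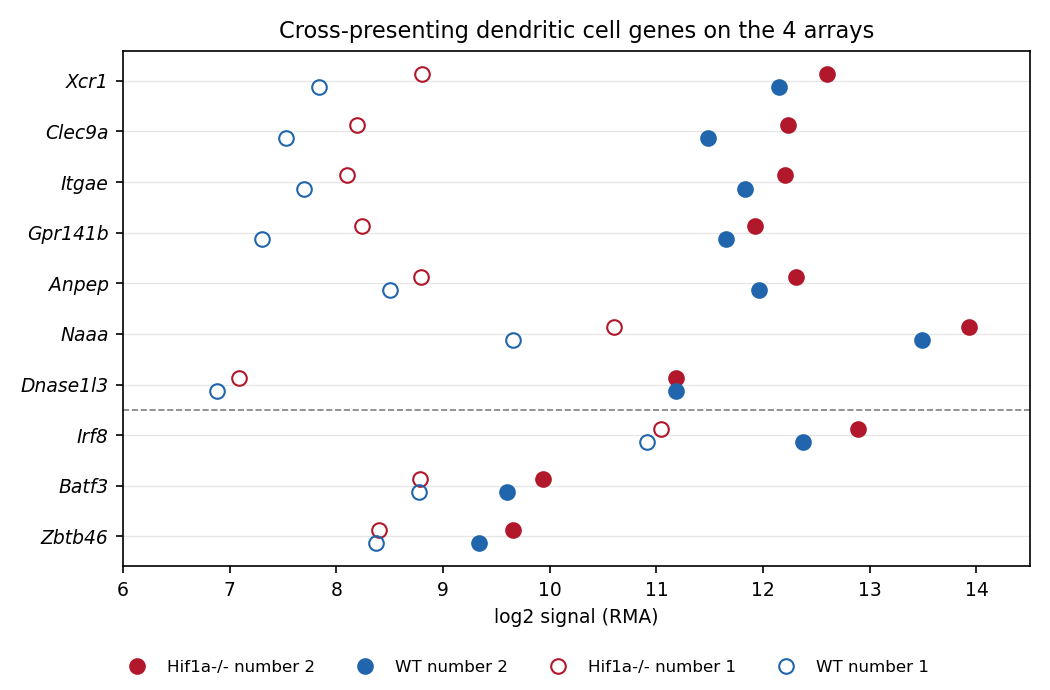
Log2 signal (RMA) of the 10 members on each array, with 1 point per array. Red points are arrays labelled Hif1a-/- and blue points WT, filled for number 2 and open for number 1. The dashed line separates 7 surface and enzyme genes from 3 transcription factor genes. In every gene both filled points lie right of both open points, and the gap is narrower below the line.

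The surface receptor genes that define the lineage had gaps of about 4 log2 units. Xcr1 encodes the receptor for the chemokine XCL1, through which cDC1s meet CD8 T cells and NK cells. Its signal was 12.59 (Hif1a-/-) and 12.15 (WT) in the arrays numbered 2, against 8.81 and 7.84 in the arrays numbered 1. The mean difference between the numbers was 4.05 log2 units, or 16.6-fold, and no array of one number came near the other.

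Clec9a encodes DNGR-1, a receptor for actin filaments exposed on dead cells. It had 12.23 (Hif1a-/-) and 11.48 (WT) in the arrays numbered 2, against 8.20 and 7.53 in the arrays numbered 1. The gap was 3.99 log2 units, or 15.9-fold, and it was nearly equal in the genotypes, at 4.03 (Hif1a-/-) and 3.95 (WT).

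Itgae encodes the integrin chain CD103, which binds E-cadherin and is found on cDC1s and on T cells of epithelia. Its signal was 12.21 (Hif1a-/-) and 11.83 (WT) in the arrays numbered 2, against 8.10 and 7.69 in the arrays numbered 1. The gap of 4.12 log2 units, or 17.4-fold, was the second of all 19938 genes. Itgb7, which encodes the partner chain of CD103, had a smaller gap of 1.22.

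Gpr141b, a G protein-coupled receptor gene, had 11.93 (Hif1a-/-) and 11.65 (WT) in the arrays numbered 2, against 8.24 and 7.30 in the arrays numbered 1. Its gap was 4.02 log2 units, or 16.3-fold, with 3.69 among the arrays labelled Hif1a-/- and 4.36 among the WT arrays. WT number 1 was the lowest of the 4 arrays by 0.94 log2 units.

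Anpep encodes aminopeptidase N, or CD13, a peptidase on the surface of myeloid cells as well as cDC1s. It had 12.30 (Hif1a-/-) and 11.96 (WT) in the arrays numbered 2, against 8.79 and 8.50 in the arrays numbered 1. The gap of 3.49 log2 units, or 11.2-fold, was almost the same in both genotypes, at 3.51 (Hif1a-/-) and 3.46 (WT).

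The enzyme genes followed the surface genes. Naaa encodes a lysosomal amidase that splits fatty acid ethanolamides. Its signal was 13.93 (Hif1a-/-) and 13.49 (WT) in the arrays numbered 2, against 10.61 and 9.66 in the arrays numbered 1, a gap of 3.58 log2 units or 11.9-fold. Dnase1l3 encodes a secreted nuclease that digests the DNA of dying cells. It had 11.18 in both arrays numbered 2, against 7.09 (Hif1a-/-) and 6.88 (WT) in the arrays numbered 1. Its gap of 4.19 log2 units, or 18.3-fold, was the largest of all 19938 genes in the mean of both genotypes.

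The 3 transcription factor genes among the members had much smaller gaps than the other members. Irf8 had 12.89 (Hif1a-/-) and 12.38 (WT) in the arrays numbered 2, against 11.04 and 10.91 in the arrays numbered 1, a gap of 1.66 log2 units or 3.15-fold. Batf3 had 9.94 (Hif1a-/-) and 9.60 (WT) in the arrays numbered 2, against 8.78 and 8.77 in the arrays numbered 1, a gap of 0.99 or 1.99-fold. Zbtb46 had 9.66 (Hif1a-/-) and 9.33 (WT) in the arrays numbered 2, against 8.40 and 8.37 in the arrays numbered 1, a gap of 1.11 or 2.16-fold. In all 3 the gap was wider among the arrays labelled Hif1a-/- than among the WT arrays. The arrays numbered 1 differed by at most 0.13 log2 units in these genes.

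Among the 10 members, which were chosen with these values known, the gaps fell into 2 tiers. Other listed cDC1 genes lay between the tiers, such as Tlr3 (3.21 log2 units), Id2 (2.89) and Cadm1 (2.49). Id2 is itself a regulator, and the surface gene Ly75 had 1.08, so the tiers do not divide the 2 kinds of gene in general. The gaps of the 7 surface and enzyme genes ran between 3.49 and 4.19 log2 units, and those of the 3 transcription factor genes between 0.99 and 1.66. At least 3 log2 units in both genotypes was reached by those 7 members, and by 0.0903% of all genes, which is 18 genes in all. At least 1 log2 unit in both genotypes was reached by 8 members and by 1.84% of all genes. The 7 genes were also among the 10 genes with the widest mean gap, where Irf8 stood at 192, Zbtb46 at 422 and Batf3 at 493. The other 3 of the 10, named after their values were seen, were the p200-family gene Ifi205 (3.87), the chitinase-like gene Chil3 (3.66), which neutrophils and monocytes also express, and Shtn1 (3.55). These ranks describe how the members were chosen.

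**Figure D2:**
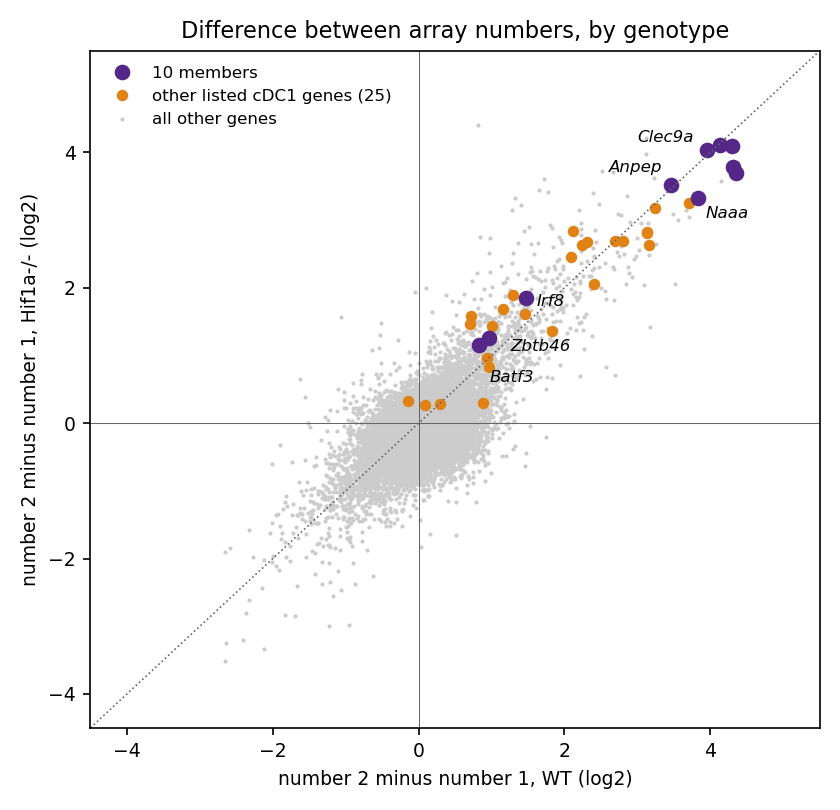
Each point is a gene, with its difference between the arrays numbered 2 and 1 (log2) in the arrays labelled Hif1a-/- on the vertical axis and in the WT arrays on the horizontal axis. Purple points are the 10 members, orange points the 25 other listed cDC1 genes and grey points all other genes, and the dotted line marks equal differences. The 7 surface and enzyme genes lie at the far end of the cloud near the line, and Irf8, Batf3 and Zbtb46 lie closer to the origin.

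The sequence before the starts of the 10 genes was searched for letters bound by IRF8 and its partners. Since the genes were chosen with their signals by number known, their moving together is no evidence of shared control. The RefSeq promoter table (GRCm38.p6) held 9 promoters of 8 members, Irf8 with 2, and 32841 promoters were searched over the 250 bases before the start, on both strands. The last 120 of these bases are shown for Xcr1 and Clec9a, the 2 defining receptor genes, and for the 2 members with a match, Gpr141b and Zbtb46. Capitals mark a match and each sequence runs 5′ to 3′ in the direction of the gene. The intervals are chr9:123862030-123862149 (minus strand) for Xcr1, chr6:129408742-129408861 (plus strand) for Clec9a, chr13:19732952-19733071 (minus strand) for Gpr141b and chr2:181424389-181424508 (minus strand) for Zbtb46.
Xcr1: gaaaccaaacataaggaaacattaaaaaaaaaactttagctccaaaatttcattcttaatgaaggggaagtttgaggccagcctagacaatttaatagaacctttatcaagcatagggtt
Clec9a: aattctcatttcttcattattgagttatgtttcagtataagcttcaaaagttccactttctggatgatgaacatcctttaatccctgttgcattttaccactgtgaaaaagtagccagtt
Gpr141b: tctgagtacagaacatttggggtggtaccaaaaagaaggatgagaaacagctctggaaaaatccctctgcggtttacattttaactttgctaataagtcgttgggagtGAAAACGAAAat
Zbtb46: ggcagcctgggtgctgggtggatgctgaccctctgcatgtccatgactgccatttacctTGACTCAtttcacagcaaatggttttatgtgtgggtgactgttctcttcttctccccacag
The core of the interferon-stimulated response element, which is GAAA, any 2 bases and GAAA again, was found in Gpr141b alone of the 9 promoters, and in 2.98% of all promoters. The AP-1 letters TGANTCA, read by BATF-family and other AP-1 factors, were found in Zbtb46 alone, and in 6.75% of all promoters. That Zbtb46 start lies 68874 bases inside the annotated span of the gene. The composite of an ETS and an IRF site (GGAA, any 2 bases and GAAA, in 2.3% of all promoters) and an 8-base PU.1 site (2.44%) were in none of the 9 windows. Nor was the AP-1 site followed by the IRF core GAAA, either directly (0.119% of all promoters) or after any 5 bases (0.067%). These joined forms contain the AP-1 letters, so the searches overlap. The order with GAAA directly before the AP-1 letters was not searched, nor were other spacings. On the other strand that order reads as the AP-1 letters followed by TTTC. The AP-1 match of Zbtb46 is directly followed by TTTC, so its window does hold this unsearched joined order. The share of all promoters with it was not counted, and an absence of joined sites in the other windows cannot be stated.

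Other cDC1 genes outside the 10 moved with them between the numbers. Of 25 measured genes of this list, 23 were higher in both arrays numbered 2 than in both numbered 1 and 0 were lower, with a median gap of 1.60 log2 units. The shares of all genes were 20.4% higher and 27.2% lower. Cd36, a scavenger receptor gene, had 10.68 (Hif1a-/-) and 10.44 (WT) in the arrays numbered 2, against 7.42 and 6.73 in the arrays numbered 1. Tlr3, the receptor for double-stranded RNA, had 11.15 and 10.87, against 7.97 and 7.63. Cadm1, an adhesion molecule gene, had a gap of 2.49, and Ly75, which encodes the uptake receptor DEC-205, one of 1.08. Wdfy4, needed for cross-presentation in mice, had a gap of 1.15, and Cd8a one of 0.90. The genes with the smallest gaps were the adaptor gene Clnk (0.09) and Tlr12 (0.18).

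The regulators that act with Irf8 and Batf3 did not share one pattern. Id2, which encodes an inhibitor of E proteins needed for dendritic cells, had 12.81 (Hif1a-/-) and 12.63 (WT) in the arrays numbered 2, against 10.18 and 9.47 in the arrays numbered 1. Its gap of 2.89 log2 units was wider than those of Irf8, Batf3 and Zbtb46. Nfil3, a cDC1 factor upstream of Id2, had a gap of 0.59, and Spi1, which encodes PU.1, one of 0.70. Bcl6, a repressor that cDC1s express, had a gap of 1.88. Flt3, the receptor for the growth factor of dendritic cells and also a progenitor gene, was lower in number 2, by −0.84. Over the 21 genes of the progenitor regulator list, 8 were higher in both arrays numbered 2 and 9 were lower, with a median of 0.01. Of all genes, 20.4% were higher and 27.2% lower in this way.

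Genes shared by all conventional dendritic cells also had wide gaps, and markers of the other dendritic cell types did not to the same extent. Of 18 shared genes 17 were higher in both arrays numbered 2 and Flt3 was lower, with a median of 1.09 log2 units. The integrin gene Itgax (CD11c) had a gap of 2.15, the MHC class II genes H2-Eb1 and H2-Aa had 2.59 and 2.54, and Ciita, their transactivator, had 2.59. Of 16 genes of the type 2 cells (cDC2) 11 were higher and 2 lower, with a median of 0.48. Among them Irf4, the factor of that lineage, had a gap of 0.74, the lectin gene Mgl2 one of 1.23 and Cd209a one of 0.11. Of 15 genes of plasmacytoid dendritic cells 7 were higher and 6 lower, with a median of 0.11. Tcf4, the factor that specifies them, differed by −0.95, Tlr7 by −1.14 and Tlr9 by 1.70. Beside these counts, 20.4% of all genes were higher in both arrays numbered 2 and 27.2% lower. The differences between these lists were not tested.

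The listed genes of antigen processing varied widely in their gaps. Ifi30, a lysosomal thiol reductase gene, had a gap of 3.05 log2 units between the numbers. Cybb, a subunit of the phagosomal NADPH oxidase, had 2.38 and the protease gene Ctss 1.89. The peptide transporter genes Tap1 and Tap2 had gaps of 0.25 and −0.12, and the peptidase gene Erap1 one of −0.28, which was the lowest of the list. Over the 27 measured genes of the list, 17 were higher in both arrays numbered 2 and 2 lower, with a median of 0.27. This was against 20.4% of all genes higher and 27.2% lower.

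Markers of other myeloid cells moved with the cDC1 genes. Of 18 neutrophil and granule markers, all 18 were higher in both arrays numbered 2, with a median gap of 2.26 log2 units, and Mmp8 and Ltf had 3.11 and 2.66. The 14 mast cell, basophil and eosinophil markers had 12 higher and 1 lower, with a median of 1.44. The 16 monocyte and macrophage markers had 14 higher and 0 lower, with a median of 0.97, of which Ccr2 had 2.55 and Csf1r 0.53. The 16 B, T and NK cell markers had 8 higher and 0 lower, with a median of 0.19. Among them the NK cell genes Ncr1, Klrb1c and Klrd1 had gaps of 1.90, 1.42 and 1.23, and Ebf1 and Pax5 of the B lineage −0.57 and −0.41. The 11 erythroid and megakaryocyte markers had 6 higher and 3 lower, with a median of 0.19. For all these lists the shares of all genes were 20.4% higher and 27.2% lower, and the 3 lower erythroid and megakaryocyte markers were near that share.

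Summed over a list on the linear scale, where bright probe sets weigh most, the 10 members had 51976 (Hif1a-/-) and 38817 (WT) signal units in the arrays numbered 2, against 6343 and 4758 in the arrays numbered 1. These sums differed between the numbers by 8.19-fold among the arrays labelled Hif1a-/- and 8.16-fold among the WT arrays. The neutrophil and granule sum was 109851 and 85952 in number 2, against 34983 and 42479 in number 1, or 3.14-fold (Hif1a-/-) and 2.02-fold (WT). Mpo and Elane, the brightest of that list in number 1, had small gaps of 0.23 and 0.69 log2 units, against 3.11 for Mmp8 and 2.66 for Ltf. The sum therefore mixes genes with unlike gaps. The monocyte and macrophage sum was 31580 and 30127 in number 2, against 12304 and 12095 in number 1. The mast cell, basophil and eosinophil sum was 27073 and 27225, against 11657 and 10290. An array signal has no true zero, so no marker can be said to be at 0. What part these cell types have in the values of the members was not tested.

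**Figure D3:**
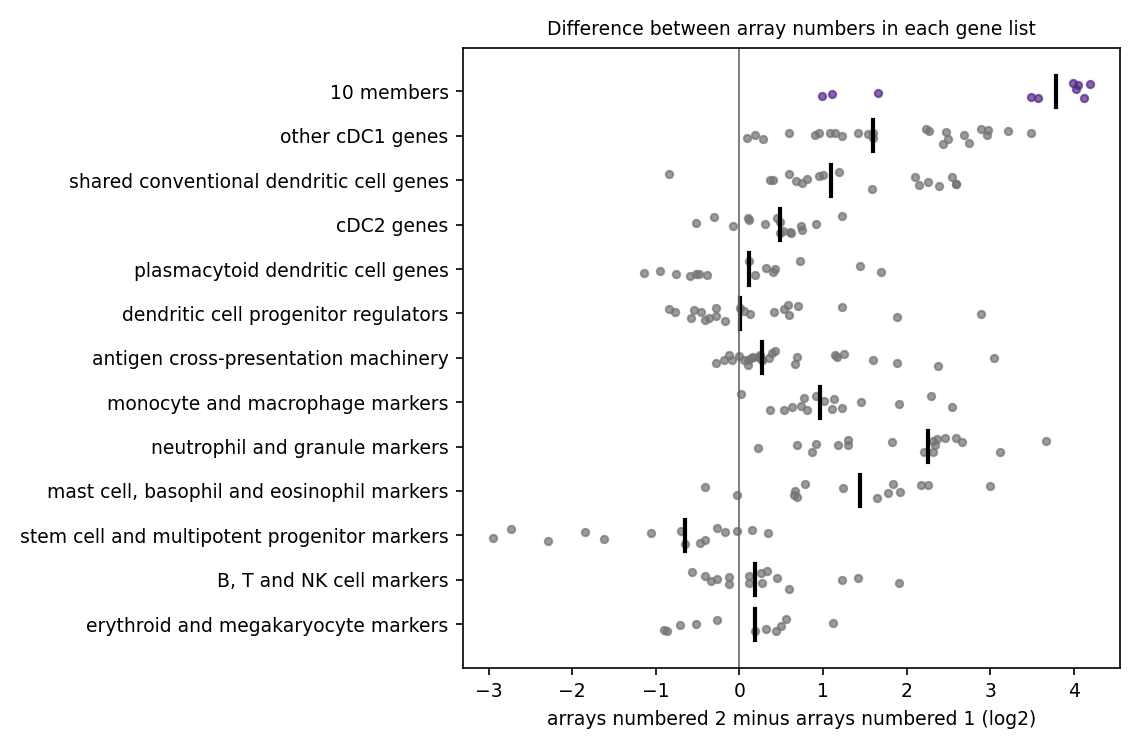
Difference between the arrays numbered 2 and the arrays numbered 1 (log2, mean of both genotypes) for each gene of the 13 lists, with 1 point per gene, spread vertically for legibility, and a black bar at the median. The medians run between 3.79 for the 10 members and −0.65 for the stem cell and multipotent progenitor markers, and a gene on several lists appears in each.

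Between the genotypes, the mean of each of the 10 members was slightly higher in the arrays labelled Hif1a-/-, as for 50.6% of all genes, and none passed the test. limma's adjusted p (Benjamini-Hochberg over 19938 genes) was 0.9998 for every member, and 0 members were called, against 0% of all genes. At an unadjusted p under 0.05 there were 0 members and 0.727% of all genes. The differences lay between 0.10 and 0.71 log2 units, with a median of 0.36, against 0.00 over all genes. Their standard errors lay between 0.51 and 2.10, against a median of 0.15 over all genes, since the spread between the numbers enters them. Without the Hif1a-/- array numbered 2 or the WT array numbered 1 the median turned, to −1.21 and −1.34, and without the Hif1a-/- array numbered 1 or the WT array numbered 2 it was 2.25 and 2.35.

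The genotypes overlapped in every member, which the gap between the numbers had fixed in advance. Each genotype holds an array of each number, and both arrays numbered 2 lay above both numbered 1 in every member. The counts of members without overlap therefore say nothing about genotype. A signal above both WT arrays in both arrays labelled Hif1a-/- was seen for 0 members, against 16.1% of all genes, and one below both for 0 members, against 8.33%. Clec9a averaged 10.21 ± 2.85 in the arrays labelled Hif1a-/- and 9.50 ± 2.80 in WT (SD, n = 2 each), a difference of 0.71 with a 95% interval between −4.86 and 6.28. Batf3, with the smallest error of the members, averaged 9.36 ± 0.82 in the arrays labelled Hif1a-/- and 9.19 ± 0.58 in WT (SD, n = 2 each), a difference of 0.17 with a 95% interval between −1.25 and 1.60.

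Within each number the direction was the same. All 10 members were higher in the array labelled Hif1a-/- than in the WT array in number 2 and in number 1, which was so for 27.3% of all genes. Under median centring Dnase1l3 turned in number 2 (−0.01), and Batf3 turned in number 1 under quantile normalization and under cyclic loess (both −0.002), so that 9 members remained in each case. With 1 array per genotype in a number these differences have no replicate check. Members measured on the same 4 arrays are not replicates of the genotypes.

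The 3 transcription factor genes differed between the genotypes mainly in number 2. Irf8 differed by 0.51 log2 units in number 2 and 0.13 in number 1, Batf3 by 0.34 and 0.01, and Zbtb46 by 0.32 and 0.03. Among the 7 surface and enzyme genes, 5 had the larger difference in number 1 in the deposited values, a count that depended on the scaling. Xcr1 differed by 0.44 in number 2 and 0.97 in number 1, Naaa by 0.44 and 0.95, and Gpr141b by 0.27 and 0.94. Clec9a (0.75 and 0.67), Itgae (0.38 and 0.41) and Anpep (0.34 and 0.29) were alike in both in the deposited values, and Dnase1l3 had 0.00 and 0.20. Under cyclic loess the first of these were larger in number 2, Clec9a with 0.94 and 0.65, Itgae with 0.58 and 0.38 and Anpep with 0.575 and 0.26. Under quantile normalization Dnase1l3 had 0.17 in both. Xcr1, Naaa and Gpr141b stayed larger in number 1 under all 3 scalings, and the transcription factor genes in number 2. With 4 arrays a fit of genotype, number and their interaction leaves no residual, so the difference between the numbers was not tested.

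**Figure D4:**
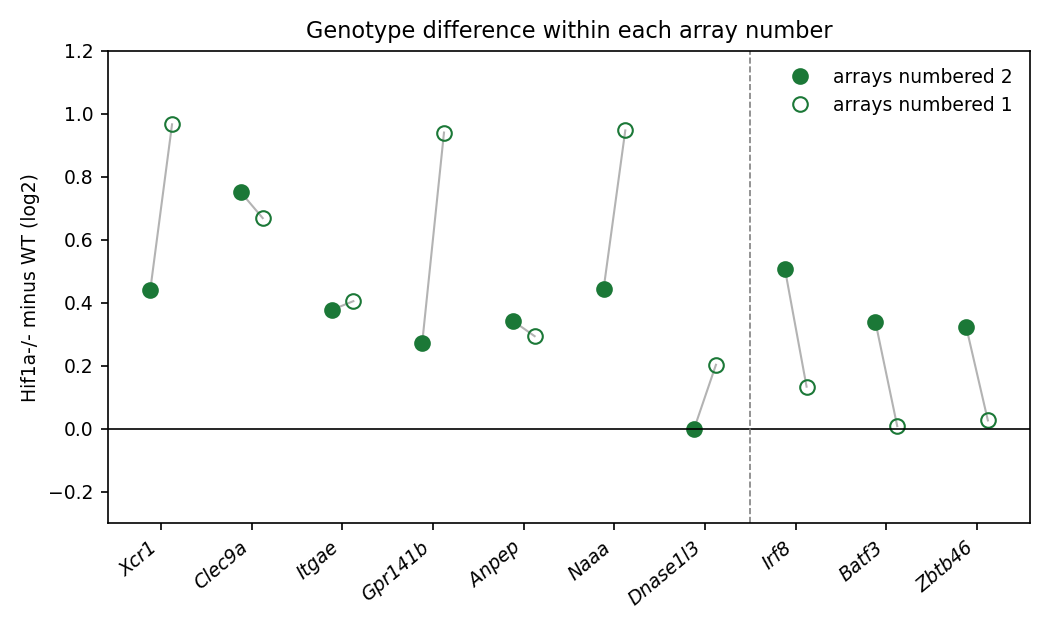
Difference between the array labelled Hif1a-/- and the WT array (log2) within each array number, for the 10 members, with filled points for number 2 on the left and open points for number 1 on the right of each gene. The dashed line separates the surface and enzyme genes from the transcription factor genes. Every point lies at or above 0, with the lowest at 0.00 for Dnase1l3 in number 2 and the highest at 0.97 for Xcr1 in number 1.

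On the linear scale the sum of the 10 members was 1.34-fold higher in the array labelled Hif1a-/- than in the WT array in number 2, and 1.33-fold in number 1. Bright probe sets such as Naaa and Irf8 weigh most in such sums, so the near-equal ratios do not describe single members. Single members differed by 0.00 to 0.75 log2 units in number 2 and by 0.01 to 0.97 in number 1. The sum of the 25 other cDC1 genes had 1.26-fold in number 2 and 1.08-fold in number 1, and that of the 18 shared dendritic cell genes 1.14-fold in both. The neutrophil and granule sum had 1.28-fold in number 2 and 0.82-fold in number 1, and the stem cell and multipotent progenitor sum 0.68-fold and 0.90-fold. The B, T and NK cell sum had 1.26-fold in number 2 and 1.58-fold in number 1, and the erythroid and megakaryocyte sum 0.66-fold and 1.06-fold. Of the 16 B, T and NK cell markers 15 were higher in the mean in the arrays labelled Hif1a-/-, against 50.6% of all genes. Of these, 7 had no overlap, against 16.1% of all genes. At an unadjusted p under 0.05 in limma there were 5, against 0.727% of all genes, though none passed after adjustment. Those 5 were Cd79a, Pax5, Ebf1, Vpreb1 and Vpreb3, all of the B lineage, and no T or NK cell marker was among them. The B-lineage genes Ebf1 and Cd79a differed by 1.41 and 1.06. Whether these other markers have a part in the genotype difference of the members was not tested.

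Among the wider dendritic cell lists the genotype differences were small, and 0 genes passed limma's test in any of them. Of the 25 other cDC1 genes 20 were higher in the mean in the arrays labelled Hif1a-/-, 18 of them within both numbers (15 under cyclic loess), with a median of 0.27 log2 units. Tlr12 and Ly75 differed by 0.30 and 0.45, and Fzd1 and Clnk by −0.13 and −0.08. Of the 18 shared dendritic cell genes 14 were higher in the mean (17 under quantile normalization), 10 within both numbers, with a median of 0.26. Cd40 and Cd80, costimulatory genes, differed by 0.38 and 0.26. The 16 cDC2 genes had 8 higher and a median of 0.00, and Clec10a differed by −0.45. The 15 plasmacytoid genes had 9 higher and a median of 0.10, led by Blnk (0.88) and Spib (0.72), which B-lineage cells also express.

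The 21 progenitor regulators went the other way in the mean for 14 of 21, with a median of −0.09. Cebpa, a factor of myeloid progenitors, differed by −0.50 and Gfi1 by −0.25, and Flt3 by −0.05. The 27 antigen processing genes had a median of 0.04, with Nlrc5, the transactivator of MHC class I genes, at 0.41 and the peptide transporter gene Tap1 at 0.20. At an unadjusted p under 0.05, limma gave 0 genes in these 6 dendritic cell lists.

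The 8 genes outside the list whose 4 values most resembled the mean profile of the 10 members included Ifi30, Tlr3 and Id2. Likeness was measured as the root mean square difference, in log2 units over the 4 arrays, between values centred on their mean. Ifi30 was closest at 0.06, then Tlr3 at 0.07 and Rab7b, a small GTPase of late endosomes, at 0.10. Gpr33, a G protein-coupled receptor gene, and Phf11a followed at 0.15 each. Tlr13, a sensor of bacterial ribosomal RNA in mice, and Id2 followed at 0.16 each, and Plpp1, a lipid phosphatase gene, at 0.18. The members themselves lay between 0.19 (Anpep) and 1.08 (Batf3) from their own mean profile. With 4 arrays that differ mainly by number, such likeness is a description of these arrays.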

How the data were processed

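The deposited table gives log2 signals for 35556 probe sets. Per the submitters' processing notes, the authors made them by RMA, using version 1.1 of Affymetrix Expression Console. Base 2 was taken from the range, 3.08 to 14.88. RMA brings arrays to a common distribution, so a change shared by all genes would be removed. Median signals over genes were 8.54 to 8.56. The interquartile ranges over genes still differed, at 2.27 (Hif1a-/-) and 2.53 (WT) in number 2 and 2.38 and 2.41 in number 1. The gene values of the arrays thus did not share a distribution exactly. No genome build is given in the sources used here.

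Genes were named from probe sets with 1 symbol in the platform annotation (21789), taking the probe set with the highest mean of the 4 arrays, which left 19938 genes. No filter on dim signals was applied. Hif1a-/- was set against WT with lmFit and eBayes of limma 3.58.1 (R 4.3.3), two-sided and without covariates, at a threshold of 0.05. The fit was tested on simulated data with independent noise and no difference between array numbers, so that test does not cover the gaps between numbers seen here. The number of arrays limits precision, and whether replicates came from separate mice is not stated beyond the word biological, so p-values measure the spread between these arrays.

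The members and the 12 other lists were chosen with earlier results of these data known. In each list the text names genes with the smallest p between genotypes or the largest gap between numbers, beside a set of regulators and surface genes, and the 8 most alike genes. Kit and Itgb7 were added after their values were seen. Listed genes without a probe set of 1 symbol, such as Tlr11, H2-K1 and Ly6a, were not analysed here. Alternatives were a replicate block, each array left out, 3 scalings, a filter on the dimmest 40% of genes, the mean of a gene's probe sets, and eBayes with trend and robust.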

Additional observations from a re-analysis of the deposited data

Results flagged for a closer look

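For 5 gene lists the median difference between the arrays labelled Hif1a-/- and WT pointed in opposite directions in the 2 array numbers, and the difference between the numbers was not tested. The neutrophil and granule markers had 0.85 log2 units in number 2 and −0.24 in number 1, and the erythroid and megakaryocyte markers had −0.48 and 0.00 (0.002 before rounding). The mast cell, basophil and eosinophil markers had −0.18 in number 2 and 0.11 in number 1, the monocyte and macrophage markers −0.0598 and 0.0403, and the antigen processing genes −0.0099 and 0.0197. Over all genes the median was 0.0065 in number 2 and 0.0196 in number 1. The antigen processing medians, and the erythroid and megakaryocyte median in number 1, lay close to these, so their signs carry little meaning. The monocyte and macrophage medians were also small. None of the 10 members did so in the deposited values.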

How the results depend on the processing

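The count of 0 genes called by limma between the genotypes held under all 11 alternatives, with 39 to 622 genes at an unadjusted p under 0.05. The direction of every member held under the 3 scalings, the dim filter (which kept all 10 members), averaged probe sets and eBayes with trend and robust. It turned for all 10 members without Hif1a-/- array 2 and without WT array 1, which leaves the genotypes with unequal shares of the 2 numbers. With single arrays left out, the median of the members ranged between −1.34 and 2.35. Single members ranged between −1.45 and 2.86 (Xcr1), −1.31 and 2.73 (Clec9a), −1.68 and 2.46 (Itgae), −1.57 and 2.79 (Gpr141b), −1.44 and 2.07 (Anpep), −1.22 and 2.61 (Naaa), −2.05 and 2.25 (Dnase1l3), −0.60 and 1.24 (Irf8), −0.40 and 0.75 (Batf3) and −0.45 and 0.81 (Zbtb46). Members with no overlap between genotypes numbered 0 to 10 and genes 10367 to 13441 with an array left out, against 0 and 4876 with all arrays, and 2134 genes without the dimmest 40%, where fewer genes were tested. The gap between array numbers stayed between 0.99 and 4.26 log2 units for every member under the scalings and filters, with medians of 3.76 to 3.81.

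Same-numbered arrays deviated together from their genotype means (r = 0.669 across genes, 2 pairs), but the labels do not say that a number marks shared material. With the number as a replicate block, 0 genes were called, 478 had an unadjusted p under 0.05, and the smallest adjusted p of a member was 0.98 in limma. The standard errors of the members were then 0.13 to 0.19, and 5 of 10 members had an unadjusted p under 0.05 (Clec9a, Naaa, Xcr1, Gpr141b and Itgae), against 2.4% of all genes and 0 members without the block. The members were chosen with these values known.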
